A study of Homo sapiens with 12 samples.

Results

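The data described here are the expression values of 7 genes of the neuronal membrane and of neurite outgrowth, *GPM6A*, *GPM6B*, *NREP*, *PTPRS*, *NCAM1*, *L1CAM* and *NAP1L1*. They were chosen by name among the 10976 genes measured in cerebral organoids (COs), and all 7 listed symbols were present. The COs were grown without guiding factors from H1, an established human embryonic stem cell line (WT), and from the KO clones KO#2 and KO#10, obtained from H1 by CRISPR-Cas9 editing of *c-JUN*. Each line was sequenced as total RNA at day 12 and day 24, with 2 libraries per line and day and 12 libraries in all, and the study asked how neural development in COs differs without *c-JUN*. Each library held the RNA of several pooled COs and each edited line was 1 clone, so that the editing cannot be told apart from other differences between clones. Nothing in the labels says whether replicates came from separate cultures, and the *p*-values therefore measure the spread between these libraries only. In plots of its differential expression, the study itself marked *GPM6A*, *NREP*, *PTPRS* and *NAP1L1* as upregulated genes on these same libraries, so their direction at day 24 is not independent evidence.

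GPM6A and GPM6B are glycoproteins of the proteolipid family that cross the neuronal membrane and take part in the formation of filopodia and neurites. NCAM1 and L1CAM are adhesion molecules of the immunoglobulin superfamily that bind between neighbouring axons, and PTPRS is a receptor tyrosine phosphatase that binds proteoglycans and can hold axon growth back. NREP is a small intracellular protein linked to nerve regeneration, and NAP1L1 is a histone chaperone, so these are not membrane proteins. c-JUN is a subunit of AP-1, a transcription factor that binds AP-1 and CRE sequences.

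The values were whole-number scores that the authors had normalized, not read counts. Every library had the same median, 17, and the same highest value, 5585, and held only 269 to 271 distinct values, so that depth is unknown and the highest values are shared by several genes. Replicates correlated with Pearson's r of 0.909 to 0.957 across genes on the log2 scale. The lowest of these belonged to KO#10 at day 24, which does not show which of the replicates is unusual. Replicate 1 was the lowest KO library of day 24 for all 7 genes, so leaving it out had to raise their fold changes. The counts and the fold changes at day 24 are given with and without that library. *JUN*, the edited gene, stood at 4 and 8 (WT), 19 and 18 (KO#2) and 14 and 13 (KO#10) at day 12. At day 24, *JUN* stood at 13 and 15 (WT), 39 and 39 (KO#2) and 29 and 32 (KO#10). All libraries labelled KO were thus above both WT libraries of their day, and the gene-level value of *JUN* does not separate edited from unedited transcripts. The study itself reported no c-JUN protein in the KO lines by western blot, and no *c-JUN* RNA in KO COs by quantitative PCR. That RNA result differs from the *JUN* values here, and the reason was not tested. KO below stands for the libraries labelled so.

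Of the 7 genes, 6 had promoter windows in the RefSeq table (GRCh38.p14), 16 windows in all, each with 250 bases before and 50 bases after a transcription start. No window held the AP-1 sequence TGACTCA or its reverse complement TGAGTCA, which occur in 4.95% of the 35116 windows of all genes. The CRE sequence TGACGTCA, which reads the same on both strands and differs from the AP-1 sequence by an added base, occurs in 1.85% of all windows. Among the 6 genes it was found once for *GPM6B* and once for *PTPRS*, and both upstream stretches are shown here because they hold the only matches, in capitals, 108 and 54 bases before the start. The share of genes with a match in any window was not counted, and some windows of *NREP* and of *L1CAM* overlap. No excess of matches can therefore be read from these numbers. A match describes the sequence and is not evidence of binding, and no binding was measured here.
GPM6B, chrX:13938639-13938888, minus strand: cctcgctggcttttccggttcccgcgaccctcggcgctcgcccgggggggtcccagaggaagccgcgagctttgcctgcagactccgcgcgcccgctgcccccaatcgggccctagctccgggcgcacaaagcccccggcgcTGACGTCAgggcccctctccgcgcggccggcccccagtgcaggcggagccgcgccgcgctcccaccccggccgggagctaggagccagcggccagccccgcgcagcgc
PTPRS, chr19:5340813-5341062, minus strand: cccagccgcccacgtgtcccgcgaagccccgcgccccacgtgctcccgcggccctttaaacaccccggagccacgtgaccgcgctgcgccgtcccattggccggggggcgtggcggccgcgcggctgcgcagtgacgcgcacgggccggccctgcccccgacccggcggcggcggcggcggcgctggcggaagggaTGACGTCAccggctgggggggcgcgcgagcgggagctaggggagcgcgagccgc

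At day 24, 4 of the 7 genes rose in KO over WT: *GPM6A*, *NCAM1*, *NREP* and *PTPRS*. Calls needed a change of 2-fold or more and an adjusted *p* below 0.05 in a limma fit of log2 (value + 1) over all genes. Of the 9289 genes tested at day 24, 4.22% were called higher in KO. The median log2 fold change was 1.41 over the 7 genes and 0.01 over all genes tested. *GPM6B*, *L1CAM* and *NAP1L1* had positive log2 fold changes that did not pass the test. The lowest KO library exceeded the higher WT library in 5 of the 7 genes, *GPM6A*, *GPM6B*, *NREP*, *PTPRS* and *NCAM1*, which was so for 22.2% of the genes tested. In bulk RNA, a different number of cells of a type and a different amount of RNA per cell cannot be told apart. The counts depended on single libraries, for the 7 genes as for all genes. Without KO#10 replicate 1, all 7 genes were called, where 7.86% of genes were called higher. That library was the lowest KO library for all 7, so this had to raise each fold change and is not independent support. Without that library, the log2 fold changes were 4.53 for *GPM6A*, 2.33 for *NCAM1*, 2.21 for *NAP1L1*, 1.79 for *L1CAM*, 1.48 for *NREP*, 1.21 for *PTPRS* and 1.18 for *GPM6B*. Without KO#2 replicate 1 or WT replicate 1, *NREP* alone of the 7 was called, and 1.59% and 0.134% of all genes were called higher. None of the 7 was called without WT replicate 2, KO#2 replicate 2 or KO#10 replicate 2, where 0.0112%, 0.0549% and 0.0655% of all genes were.

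**Figure D1:**
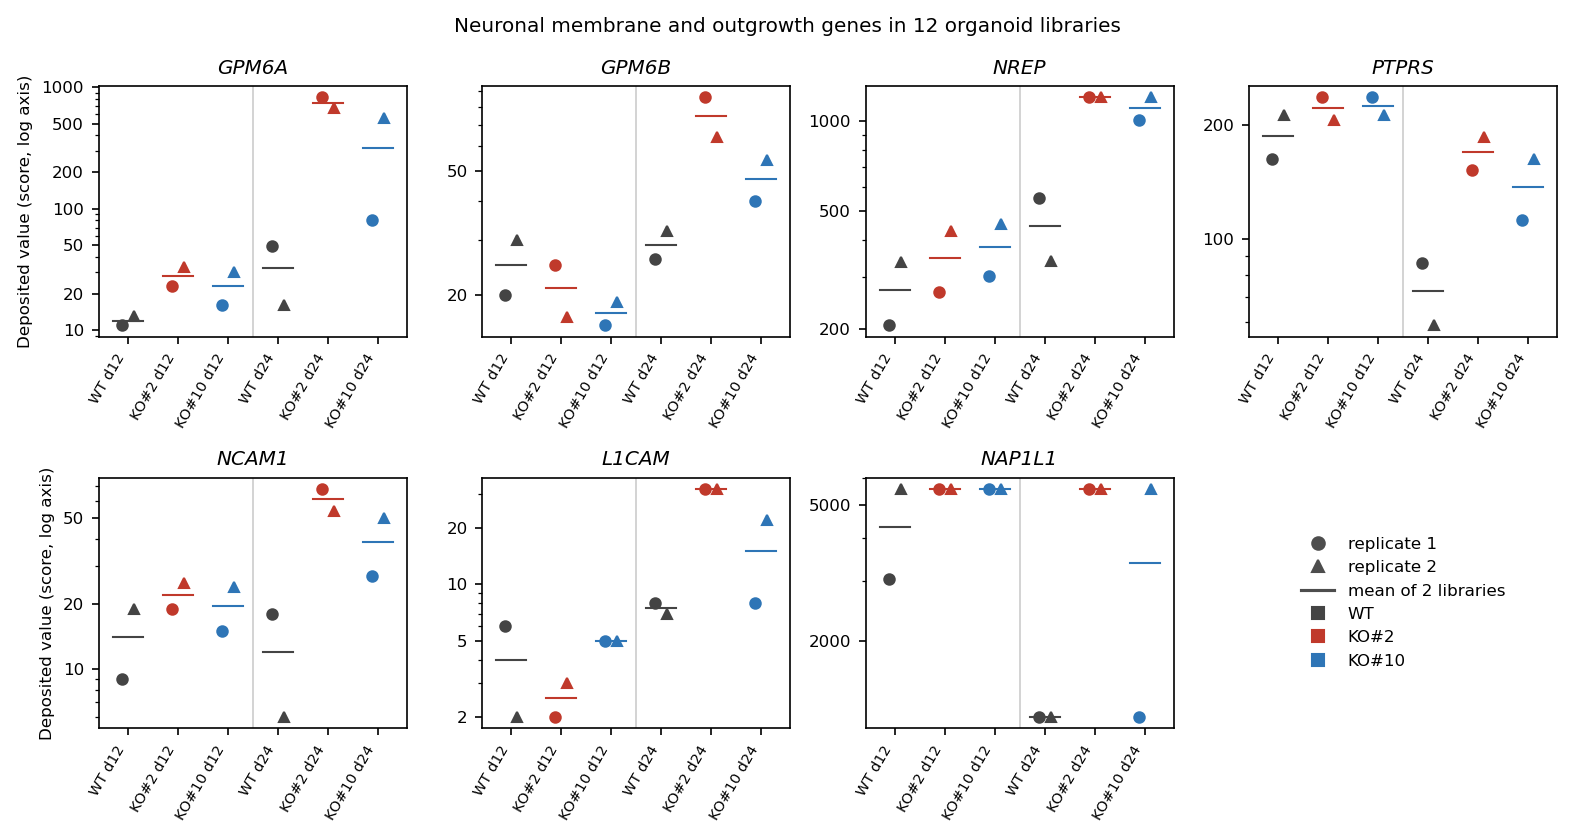
Deposited value of each gene (vertical log axis, normalized score) in the 12 libraries, by line and day (horizontal axis). Circles are replicate 1, triangles replicate 2 and bars the mean of the 2 libraries. *GPM6A* reached 553 to 822 in 3 KO libraries of day 24 and 80 in KO#10 replicate 1, against 16 and 49 in WT.

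*GPM6A* (ENSG00000150625, chr4:175632934-176002664) had the largest difference of the 7. At day 12 its values were 11 and 13 (WT), 23 and 33 (KO#2) and 16 and 30 (KO#10). At day 24 *GPM6A* reached 49 and 16 (WT), 822 and 668 (KO#2) and 80 and 553 (KO#10). The KO libraries were above both WT libraries on both days, but KO#10 replicate 1 at day 24 was closer to WT than to the other KO libraries. The log2 fold change of KO over WT at day 24 was 3.77 (SE 0.95, adjusted *p* = 0.0434), the third from the top of 9289 genes. This call was lost without the filter on low values and with the replicate block, where *NREP*, *PTPRS* and *NCAM1* kept theirs. At day 12 *GPM6A* had a log2 fold change of 0.98 (SE 0.27, adjusted *p* = 0.221), under 2-fold and not called. In the order of the 6 group means, WT at day 12 was lowest, and KO#10 and KO#2 at day 12 and WT at day 24 followed with overlapping ranges. KO#10 and then KO#2 at day 24 came last, each with a range above the one before.

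*GPM6B* (ENSG00000046653, chrX:13770939-13938638), the second gene of the proteolipid family, had much smaller differences. At day 12 it had 20 and 30 (WT), 25 and 17 (KO#2) and 16 and 19 (KO#10), and the ranges of lines next to each other in order of mean overlapped. At day 24 it had 26 and 32 (WT), 86 and 64 (KO#2) and 40 and 54 (KO#10), so that WT, KO#10 and KO#2 were separate in this order. The log2 fold change of KO over WT was 1.00 at day 24 (SE 0.29, adjusted *p* = 0.0563) and -0.35 at day 12 (SE 0.22, adjusted *p* = 0.636), and neither passed the test. Over the alternatives tried, the adjusted *p* of *GPM6B* at day 24 ran from 0.0142 to 0.283.

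*NCAM1* (ENSG00000149294, chr11:112961247-113278436) had 9 and 19 (WT), 19 and 25 (KO#2) and 15 and 24 (KO#10) at day 12. At day 24 it had 18 and 6 (WT), 68 and 54 (KO#2) and 27 and 50 (KO#10). The lines overlapped at day 12 and did not at day 24, where WT was lowest and KO#2 highest. *NCAM1* had a log2 fold change of KO over WT of 2.06 at day 24 (SE 0.47, adjusted *p* = 0.0353) and 0.59 at day 12 (SE 0.30, adjusted *p* = 0.522, not called).

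*L1CAM* (ENSG00000198910, chrX:153861514-153886173) was low at day 12, with 6 and 2 (WT), 2 and 3 (KO#2) and 5 and 5 (KO#10). It did not reach 10 in any of these libraries and was not tested at that day. At day 24 it had 8 and 7 (WT), 32 and 32 (KO#2) and 8 and 22 (KO#10). KO#2 lay well above WT, while KO#10 replicate 1 equalled the higher WT library, so that the groups touched. *L1CAM* reached 10 only in KO libraries of day 24, so it entered the fits of that day and of all 12 libraries through these alone. The log2 fold change of *L1CAM* in KO over WT at day 24 was 1.36 (SE 0.52, adjusted *p* = 0.103), which did not pass the test.

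*PTPRS* (ENSG00000105426, chr19:5158495-5340812), whose promoter window holds the CRE sequence shown above, had 162 and 212 (WT), 236 and 206 (KO#2) and 236 and 212 (KO#10) at day 12. At day 24 it had 86 and 59 (WT), 152 and 186 (KO#2) and 112 and 162 (KO#10). Each line was lower at day 24 than at day 12 in both libraries, and WT at day 24 lay below all other groups. The log2 fold change of *PTPRS* in KO over WT was 1.07 at day 24 (SE 0.24, adjusted *p* = 0.0341) and 0.26 at day 12 (SE 0.16, adjusted *p* = 0.633, not called). The interaction of genotype and day was 0.81 for *PTPRS* (SE 0.29, adjusted *p* = 0.147) and was not called.

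*NREP* (ENSG00000134986, chr5:111662621-111997464) had 206 and 337 (WT), 266 and 426 (KO#2) and 302 and 452 (KO#10) at day 12. At day 24 it had 552 and 338 (WT), 1204 and 1204 (KO#2) and 1009 and 1204 (KO#10). The lines overlapped at day 12, and all KO libraries of day 24 were far above WT. For *NREP*, KO over WT gave a log2 fold change of 1.41 at day 24 (SE 0.20, adjusted *p* = 0.0196) and 0.42 at day 12 (SE 0.28, adjusted *p* = 0.659, not called). The value 1204 was shared by 4 genes in each library that had it, with 19 genes above. *NREP* overlaps *STARD4-AS1*, an antisense gene that is also in the files, and whether the counting used strand was not given in the sources used here.

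*NAP1L1* (ENSG00000187109, chr12:76036585-76084735) took only 3 values, and these were the most limited by the normalization. At day 12 it had 3048 and 5585 in WT and 5585 in all 4 KO libraries. At day 24 it had 1204 in both WT libraries, 5585 in both KO#2 libraries, and 1204 and 5585 in KO#10. The value 5585 was the highest in every library and was shared by 9 or 10 genes, so a difference above it could not be seen. KO#10 replicate 1 equalled WT at day 24 and the other 3 KO libraries were at the highest value. KO over WT gave *NAP1L1* a log2 fold change of 1.66 at day 24 (SE 0.63, adjusted *p* = 0.104) and 0.44 at day 12 (SE 0.24, adjusted *p* = 0.573), neither called. GENCODE release 29 lists 3 processed pseudogenes of *NAP1L1*, none of them in the files, and reads shared with them could be counted under *NAP1L1*.

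At day 12, none of the 6 genes tested was called by limma, and none passed at an unadjusted *p* with a 2-fold change. Of the 8885 genes tested at that day, 0.0225% were called higher. With the replicate number as a block, which pairs the libraries of this day, 0 of the 6 were called, and 0.405% of all genes were called higher and 0.394% lower. *GPM6A* was the 1 gene of the 6 with every KO library above both WT libraries, a pattern found in 8.23% of genes. The median log2 fold change was 0.43 over the 6 genes and 0.00 over all genes. To ask whether the difference between KO and WT itself changed between the days, the interaction of genotype and day was fitted over all 12 libraries. The interaction was positive for all 7 genes, with a median of 1.36, and none was called by limma, against 0.452% of 9952 genes called in that direction. It was 2.78 for *GPM6A* (SE 1.05, adjusted *p* = 0.159), 1.36 for *GPM6B* (SE 0.39, adjusted *p* = 0.0828) and 1.47 for *NCAM1* (SE 0.60, adjusted *p* = 0.184). At an unadjusted *p*, 3 of the 7 passed, as did 4.51% of all genes in that direction. Without KO#10 replicate 1 of day 24, *GPM6A*, *GPM6B*, *L1CAM* and *NAP1L1* were called, where 4.23% of genes were.

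**Figure D2:**
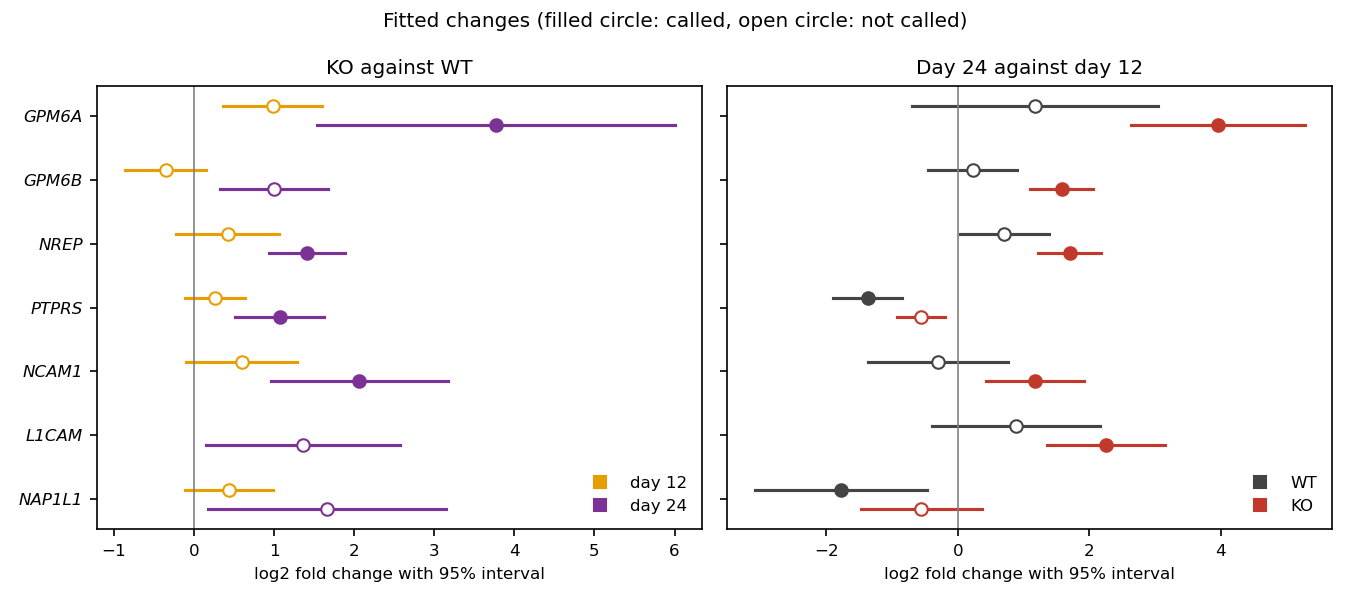
Log2 fold changes (horizontal axes) with 95% intervals from limma for each gene. On the left, KO is set against WT at day 12 and day 24, and on the right day 24 against day 12 in WT and KO. Filled circles were called and open circles were not. *GPM6A* had 3.77 in KO over WT at day 24, and *PTPRS* fell by 1.37 from day 12 to day 24 in WT.

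From day 12 to day 24, 5 of the 7 genes rose in KO, while in WT 2 fell and none was called higher. In KO, *GPM6A*, *L1CAM*, *NREP*, *GPM6B* and *NCAM1* were called higher at day 24, where 5.88% of 9952 genes were called higher and 5.59% lower. The log2 change in KO was 3.95 for *GPM6A* (SE 0.61, adjusted *p* = 0.000553) and 2.26 for *L1CAM* (SE 0.41, adjusted *p* = 0.00152). It was 1.71 for *NREP* (SE 0.22), 1.58 for *GPM6B* (SE 0.22) and 1.18 for *NCAM1* (SE 0.35, adjusted *p* = 0.019). The call of *NCAM1* was lost without KO#10 replicate 1 of day 12 or KO#2 replicate 1 of day 24, with an adjusted *p* of up to 0.0578 over the alternatives. *PTPRS* fell by 0.56 on the log2 scale in KO (SE 0.17, adjusted *p* = 0.0225), under 2-fold, and *NAP1L1* had -0.55 (SE 0.43, adjusted *p* = 0.323). In each clone, both libraries of day 24 were above both of day 12 for the 5 genes called higher. Those calls come from the same libraries, so this adds no support, and the pattern was not counted over all genes.

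In WT, *PTPRS* fell by 1.37 on the log2 scale (SE 0.24, adjusted *p* = 0.00228) and *NAP1L1* by 1.78 (SE 0.60, adjusted *p* = 0.0433), where 7.88% of genes were called lower and 7.17% higher. The call of *NAP1L1* was lost under 10 alternatives, the removal of either WT library of day 24 among them, and kept under 11. *GPM6A* had 1.17 (SE 0.86, adjusted *p* = 0.32) and *NREP* 0.71 (SE 0.31, adjusted *p* = 0.104). Both WT libraries of day 24 were above those of day 12 for *GPM6A*, *NREP* and *L1CAM*, a pattern not counted over all genes. *L1CAM* had 0.89 (SE 0.59, adjusted *p* = 0.267), *GPM6B* 0.23 and *NCAM1* -0.29, none of them called. Whether KO and WT differed in these changes is the interaction given above, which was not called for any of the 7.

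Taken by clone, KO#2 differed from WT at day 24 in 6 of the 7 genes, all but *NAP1L1*, where 4.74% of genes were called higher. In KO#10 none of the 7 was called by limma, where 0.14% of genes were, and 3 passed at an unadjusted *p*, as did 4.17% of all genes. Both comparisons share the WT libraries. Over WT, *GPM6A* had a log2 fold change of 4.67 in KO#2 (SE 0.95, adjusted *p* = 0.0401) and 2.86 in KO#10 (SE 0.95, adjusted *p* = 0.159). That of *NREP* was 1.48 in KO#2 (SE 0.25, adjusted *p* = 0.0353) and 1.35 in KO#10 (SE 0.25, adjusted *p* = 0.0959). The clones were not shown to differ by this. In the direct comparison at day 24, 0% of genes were called, and so none of the 7. Of the 7, *L1CAM* alone passed at an unadjusted *p*, as did 44 of 9289 genes in that direction. KO#2 over KO#10 was 1.81 for *GPM6A* (95% interval -0.53 to 4.15) and 1.20 for *L1CAM* (95% interval 0.15 to 2.25), with intervals that include large differences between the clones. For *NREP* the interval was -0.49 to 0.75. At day 12 none of the 6 genes tested was called between the clones or passed at an unadjusted *p*. When any 1 of the 4 libraries compared was left out, none of the 6 calls in KO#2 held, and 0 of all genes were called higher. Leaving out either KO#10 library, which only lends its spread to this comparison, kept the fold changes of KO#2 over WT, with *GPM6A* at 4.67. Which of the 7 were called changed, but KO#10 then had 1 library and these calls are not given.

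KO#10 replicate 1 at day 24 was the lowest of the 4 KO libraries for all 7 genes. The mean of the other 3 KO libraries was 8.51 times its value for *GPM6A*, 4.64 times for *NAP1L1*, 3.58 times for *L1CAM* and 1.19 times for *NREP*. Several marker lists of the cell types that a CO could hold also set this library apart from the other KO libraries, while the pluripotency list did not. The summed value of 9 neuronal markers at day 24 was 143 to 232 in WT, 1259 to 1607 in KO#2, and 290 and 1199 in KO#10 replicates 1 and 2. Much of this was *MAP2*, with 64 and 22 (WT), 668 and 1009 (KO#2) and 95 and 750 (KO#10). Of 7 neuronal markers tested, all 7 had positive log2 fold changes, and 2 were called higher in KO, *MAP2* and *ELAVL4*, where 4.22% of all genes were. *ELAVL3* (7 and 6) and *ELAVL4* (7 and 4) were below 10 in both WT libraries and passed the filter through KO alone. KO#10 replicate 1 was thus close to WT in its neuronal markers as it was in *GPM6A* and *L1CAM*.

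The other lists differed too. The 6 mesenchyme markers summed to 983 to 1142 in WT, 99 to 116 in KO#2, and 1510 and 78 in KO#10 replicates 1 and 2. Most of the higher sums was *COL3A1*, with 903 and 821 in WT and 1009 in KO#10 replicate 1. None of 5 mesenchyme markers tested was called. The 5 markers of endoderm and yolk sac summed to 6469 to 6619 in WT, with *AFP* at the highest value of 5585 in both libraries. They summed to 36 to 89 in KO#2 and to 1159 and 33 in KO#10 replicates 1 and 2, where *AFP* had 902 and 0. The 6 epithelial markers summed to 611 to 806 in WT, 40 to 66 in KO#2, and 246 and 48 in KO#10. The 6 pluripotency markers summed to 388 to 782 in WT and to 24 to 43 over the KO libraries. The 3 markers of neural crest and glia in the files summed to 24 to 55 in WT, 11 to 20 in KO#2, and 40 and 16 in KO#10 replicates 1 and 2. The 7 progenitor markers summed to 528 to 703 in WT and 970 to 1070 in KO, a difference that *VIM* carried. Without *VIM* the sums were 387 and 174 (WT), 343 and 404 (KO#2) and 222 and 454 (KO#10), and they overlapped. Of the 7 progenitor markers, 6 had positive log2 fold changes, with a median of 0.96 over the list. Called higher in the limma fit were 2, *SOX1* (1.79, adjusted *p* = 0.0448) and *PAX6* (1.15, adjusted *p* = 0.0206), where 4.22% of all genes were. *SOX1* stood at 4 and 1 in WT and passed the filter of the fit through KO alone. Not called were *HES5* (1.14, adjusted *p* = 0.255), *VIM* (0.96, adjusted *p* = 0.0196, under 2-fold), *NES* (0.55), *SOX2* (0.10, adjusted *p* = 0.833) and *FABP7* (-0.56). The part of these cell types in the differences of the 7 genes was not tested.

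**Figure D3:**
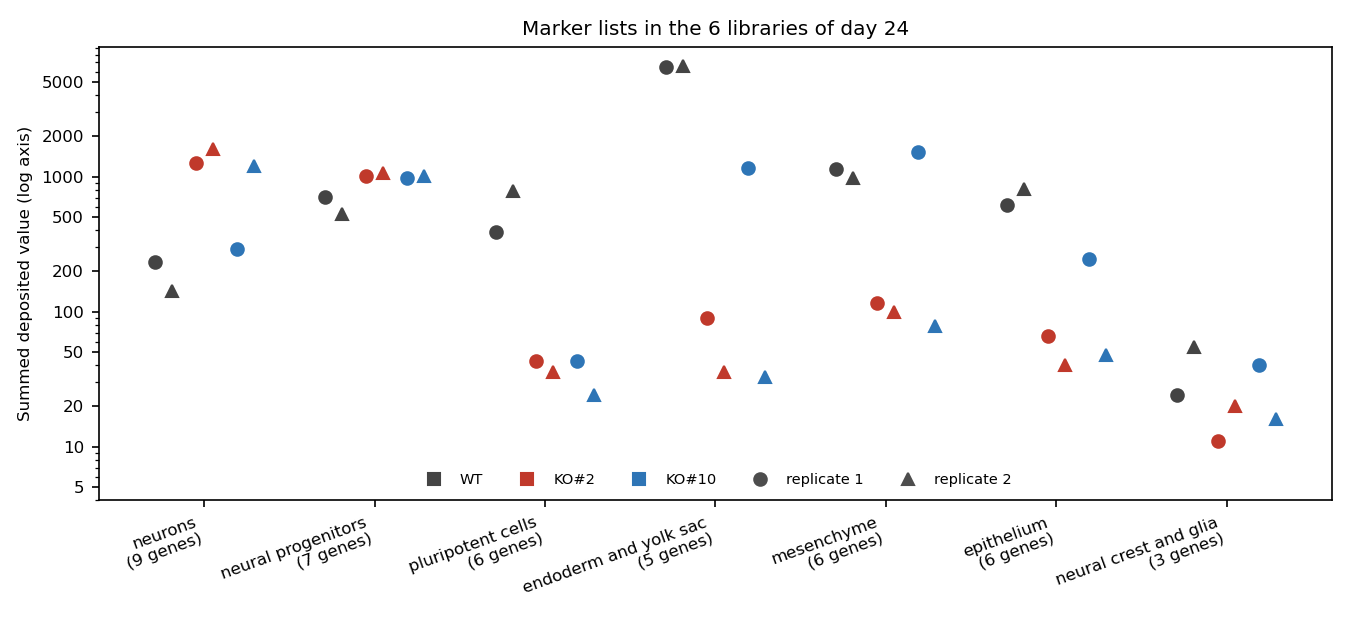
Summed deposited value (vertical log axis, normalized score) of 7 marker lists in the 6 libraries of day 24, with the number of listed genes in the files under each name. Circles are replicate 1 and triangles replicate 2, coloured by line. KO#10 replicate 1 had 290 for neurons and 1510 for mesenchyme, where the other KO libraries had 1199 to 1607 and 78 to 116.

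Families and partners of the 7 genes were described by lists of 86 other genes, 80 of them in the files and 71 tested at day 24. Of the 71, 16 were called higher in KO and 2 lower, where 4.22% and 3.79% of all genes were, and their median log2 fold change was 0.80. Taken by clone, 22 were called higher and 2 lower in KO#2, and 1 higher and 0 lower in KO#10. Of all genes, 4.74% were called higher in KO#2 and 0.14% in KO#10. In the direct comparison of the clones 0 of the 71 were called. At day 12 none of 56 tested was called by limma, and with the replicate block *CNTN2* was called higher and *GPC4* lower. Without KO#10 replicate 1, 29 of 70 were called higher and 3 lower at day 24, where 7.86% and 6.8% of all genes were. Without KO#2 replicate 1, 6 were called higher and 1 lower, where 1.59% and 1.29% of all genes were. Without any 1 of the other 4 libraries none was, where at most 12 of all genes were called higher.

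The immunoglobulin adhesion molecules, the family of NCAM1 and L1CAM, had the most members that rose, 7 of 14 tested, with a median log2 fold change of 1.25. They included *CNTN2* (3.12), an axonal contactin, *NFASC* (1.84), neurofascin of the axon initial segment and nodes, and *CHL1* (1.39), the close homologue of L1. *CADM4* (1.69), *CADM1* (1.69) and *CADM3* (1.39), adhesion molecules of synapses and of axon-glia contacts, and *LSAMP* (1.25) also rose. The other 7 of the 14 were not called. *CNTN1*, another contactin, had -0.27 and *ALCAM* had -0.49.

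Among 16 other growth cone and outgrowth proteins, 5 rose and none fell, with a median of 1.04. These were *GAP43* (1.95), a major growth cone protein, *DPYSL4* (1.40) and *DPYSL2* (1.29) of the collapsin response mediators, *STMN3* (1.34), which binds tubulin, and *PFN2* (1.14), which binds actin. *STMN2* had 1.91 with an adjusted *p* of 0.106.

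Of 9 receptor tyrosine phosphatases other than PTPRS, *PTPRO* rose (2.13) and none fell. Its values at day 24 were low, 2 and 1 (WT), 12 and 11 (KO#2) and 6 and 11 (KO#10), so it passed the filter through KO alone. *PTPRF* (0.34, adjusted *p* = 0.126) and *PTPRD* (1.13, adjusted *p* = 0.0997), the nearest relatives of PTPRS, were not called. Among 13 heparan and chondroitin sulfate proteoglycans, the class of molecules that PTPRS binds, *GPC2* (1.60), a glypican of developing neurons, rose and *SDC4* (-1.70), a widely expressed syndecan, fell.

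Of 15 partners and modifiers of NCAM1, L1CAM and PTPRS, *ST8SIA2* (1.55), which adds polysialic acid to NCAM1, and *TRIO* (1.14), a guanine nucleotide exchange factor, rose. *EZR* (-1.26), ezrin, which links membrane to actin, fell. None of 3 other genes of the nucleosome assembly family was called.

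**Figure D4:**
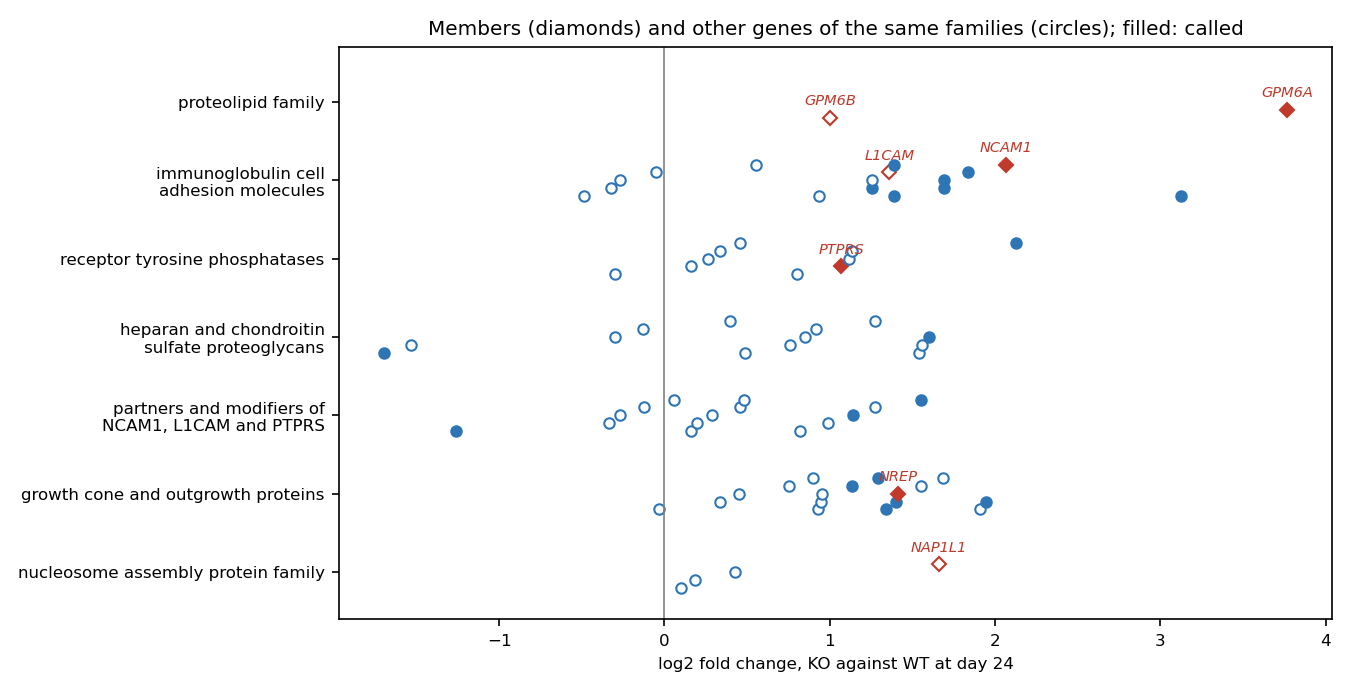
Log2 fold change of KO over WT at day 24 (horizontal axis) for the 7 genes (red diamonds) and other genes of their families and partners (blue circles, in lists with more than 1 other gene tested), by list (vertical axis). Filled symbols were called. *GPM6A* at 3.77 and *CNTN2* at 3.12 lie farthest to the right, and *SDC4* at -1.70 farthest to the left.

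For each of the 7 genes, the genes with the most similar profile were found by the root mean square difference of the mean-centred log2 values over the 12 libraries, among 9951 genes. Nearest to *GPM6A* were *EPHA3*, an ephrin receptor, at a difference of 0.41, *DCX*, the microtubule-binding protein of migrating neurons, at 0.55, and *MIR9-3HG*, the host gene of a miR-9 copy, at 0.59. *EPHA3* had 21 and 8 (WT), 552 and 212 (KO#2) and 40 and 206 (KO#10) at day 24. *NCAM1* was nearest to *MAP6* (0.29), *APLP1* (0.31) and *MYT1L* (0.31), all genes known from neurons.

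*L1CAM* was nearest to *NSG1* (0.40), *ELAVL2* (0.41) and *FGFR3* (0.44), and *GPM6B* to *TMOD2* (0.27), *BAZ1A* (0.28) and *CRMP1* (0.29). *NREP* was nearest to *ANTXR1* (0.23), *LRP11* (0.26) and *RHOBTB2* (0.26). *PTPRS* was nearest to *ARVCF* (0.14), *ZNF445* (0.14) and *SEPTIN1* (0.15), and *NAP1L1* to *DLL1* (0.32), *RGMA* (0.38) and *SYNE2* (0.40). None of these 21 nearest genes was itself among the 7. The difference depends on the spread of a gene's own profile, 2.17 for *GPM6A* and 0.59 for *PTPRS*, so it cannot be compared between the 7. *TMOD2*, *MYT1L* and *SEPTIN1* did not exceed 12 in any library, where whole-number scores are coarse.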

How the data were processed

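Total RNA of COs was sequenced in 12 libraries. The values the authors deposited are normalized whole-number scores per gene, and the aligner, counter, annotation and normalization are not stated in the paper's text. The submitters' processing notes name mm10, Bowtie2, RSEM and bcl2fastq without roles. All 10976 gene identifiers are human and are in GENCODE release 29. Coordinates are printed as the authors' files give them, and 3 of the 7 genes have the same interval in that release. The depth behind the values is unknown, which leaves no basis for counting intervals.

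The 7 genes, the gene lists and the tests were chosen with earlier results of these data known. Groups were taken from the sample labels. Values were transformed as log2 (value + 1), so that fold changes of low genes are understated. Genes reaching 10 in 2 or more libraries of a fit were tested together with limma 3.58.1 (R 4.3.3, lmFit, eBayes with trend). A gene could thus enter a fit through KO libraries alone. At day 24 this held at least for *L1CAM*, *CNTN2*, *NFASC*, *CHL1*, *PTPRO*, *ST8SIA2*, *ELAVL3*, *ELAVL4* and *SOX1*. Counts and medians of the lists include such genes, and their share over all genes was not counted. Tests were two-sided, with Benjamini-Hochberg adjustment over the genes of a fit. Calls required an adjusted *p* below 0.05 and a log2 fold change of 1 or more in size. KO was set against WT within each day, the clones in fits with 3 lines of 1 day, and days and the interaction in 1 fit of 12 libraries. The named genes are the 7, at most 5 called genes in each direction per family list, members of lists that small counts refer to, and the 3 most similar profiles of each of the 7. In the immunoglobulin list all 7 called genes are named, with *CADM3* and *LSAMP* beyond that limit. *CNTN1*, *ALCAM*, *STMN2*, *PTPRF*, *PTPRD* *PTPRZ1* and the genes named from the interaction were added after their values were seen. Replicate numbers were shared between lines, and deviations of same-numbered libraries from their group means correlated at 0.376 to 0.556 at day 12. At day 24 they correlated at 0.328 between KO#2 and KO#10, 0.218 between WT and KO#2 and -0.094 between WT and KO#10. The numbers were taken to pair the libraries at day 12 only, and whether they also do at day 24 is not settled by these values. Alternatives were other pseudocounts, filters and scalings, a replicate block and leaving out each library. Promoter sequences are from RefSeq, and *NCAM1* had no window. The result of 1 gene of the family lists is not reported here.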

Additional observations from a re-analysis of the deposited data

Results flagged for a closer look

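With 13 groups of 4 KO libraries of 1 day examined for 1 value far from the rest, 2 stood out, both at day 24 and both in KO#10 replicate 1, and about 1 group in 20 does so by chance. *NAP1L1* had 1204 there and 5585 in the other 3. *NREP* had 1009 there and 1204 in the other 3. In both genes the other 3 values were identical, and 1204 was shared by 4 genes and 5585 by 9 or 10 in a library, so that any other value beside them stands out.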

How the results depend on the processing

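The WT groups had 2 libraries a day, and leaving out 1 library changed most counts of called genes among the 7. For KO over WT at day 24 the count, 4, ran from 0 to 7, and it was 7 with unadjusted *p* and 7 with all 12 libraries in 1 fit. In these last fits, 576 of 9289 and 580 of 9952 genes passed in that direction. For the interaction the count, 0, ran from 0 to 4 and was 3 with unadjusted *p*, where 449 of 9952 genes passed in that direction. For WT over time the count, 2, ran from 1 to 2, and it was 1 without a filter and 1 with a pseudocount of 0.1. There, 821 of 10976 and 848 of 9952 genes were called lower. The count for WT over time takes both directions together. Without WT replicate 2 of day 12 it held *PTPRS* lower and *NREP* higher, with *NREP* at a log2 change of 1.065, but WT then had 1 library of that day. For KO over time the count, 5, ran from 4 to 5. For KO#2 over WT the count, 6, was 2 without a filter and 1 with a replicate block, where 367 of 10976 and 265 of 9289 genes were called higher. No call held when any 1 of the 4 libraries compared was left out, and the count changed without either KO#10 library. For KO#10 over WT the count was 3 with unadjusted *p* and 1 with all 12 libraries in 1 fit, where 387 of 9289 and 209 of 9952 genes passed in that direction. For KO#2 over KO#10 at day 24 it was 1 with unadjusted *p*, where 44 of 9289 genes passed in that direction. The replicate block for KO over WT at day 24 called 3 of the 7 higher, where 332 of 9289 genes were. Whether the numbers pair the libraries of that day is not settled by the correlations. At day 12, where they were taken to pair the libraries, the block called 0, as without it.

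Sign changes met only values that were not called, when 1 library was left out. Ranges over the libraries left out were -0.055 to 0.507 for *GPM6B* and -1.015 to 0.426 for *NCAM1* in WT over time, with 0.206 for *NCAM1* also a change of sign. For KO#2 over KO#10 at day 12 they were -0.035 to 0.496 for *GPM6B*, -0.473 to 0.205 for *NREP*, -0.118 to 0.749 for *GPM6A*, -0.118 to 0.077 for *PTPRS* and -0.133 to 0.511 for *NCAM1*, with 0.156 for *NREP* and 0.056 for *PTPRS* also changes of sign. Beside these 10, 946 of 1054 single values kept their direction and their side of the threshold, 71 lost a call and 27 gained one. The cause was not tested. Without depth, the error of low values such as those of *L1CAM* at day 12 is unknown.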

Other observations

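Between the days, 18 of 73 family and partner genes were called higher in KO and 5 lower, where 5.88% and 5.59% of all genes were. In WT, 5 were called higher and 6 lower, where 7.17% and 7.88% of all genes were. *PTPRZ1*, a phosphatase of radial glia, fell by 2.19 on the log2 scale in KO and fell by 3.31 in WT. *GAP43* rose by 4.03 in KO and 2.66 in WT. In the interaction of genotype and day, 3 of the 73 were called higher, *GPC4* (2.10), *STMN3* (1.97) and *CADM1* (1.41), where 0.452% of all genes were. With the replicate block, 4 were called higher and 1 lower, where 129 and 186 of 9952 genes were.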
